A study of Mus musculus with 23 samples.

Results

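The genes described here are 8 regulators and markers of the primitive streak and early mesoderm: T, Evx1, Gsc, Mixl1, Eomes, Kdr, Fgf8 and Mesp1. They were found by symbol among the 18412 genes of the deposited tables, and all 8 had an exon and an intron entry in each of the 3 series of the study. The study sequenced polyadenylated RNA of mouse embryonic stem (ES) cells that had lost Argonaute proteins and were cultured on gelatin in serum with leukemia inhibitory factor. The genetic series held the wild-type line AB2.2 (n = 2), the line B9 (Blm-/-;Ago1,3,4-/-, n = 2), the line E7 (Blm-/-;Ago1,2,3,4-/-;CreERT2;hAgo2fl, n = 3) and the lines C62 and C86 (both Blm-/-;Ago1,2,3,4-/-;CreERT2, 1 library each), called the clones here. The time course and the rescue used clonal cells with the genotype of the clones plus the transgene TT-FHAgo2, in which doxycycline induces Ago2, so all of their groups, controls included, lacked Blm and the 4 endogenous Argonautes. In the time course, cells that had received 2.5 µg/mL doxycycline for 48 h, stated to give the wild-type level of Ago2, were left without doxycycline for a further 0, 24, 48 or 96 h (n = 2 per time). In the rescue, cells kept without doxycycline for 96 h (n = 2) were compared with cells that then received 0.1 µg/mL, the dose used for routine culture, or 2.5 µg/mL for 48 h (n = 2 each).

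The primitive streak is the site in the gastrulating embryo where epiblast cells become mesoderm and endoderm. Nodal and activin signal there through Smad proteins, Wnt ligands signal through beta-catenin, and the streak genes respond to the dose and mixture of these signals. In ES cell cultures the same genes are read at a low level and rise when cells leave pluripotency towards mesendoderm. Argonaute proteins carry microRNAs to their targets, and the microRNAs most abundant in mouse ES cells belong to a family that shares the seed of miR-294 and miR-302.

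Because the Argonaute-bound microRNAs are what the cells lost, the ES cell microRNAs are shown with their seed, bases 2 to 8, in capitals (RefSeq, GRCm38.p6). Both have the same seed, and its target site is AGCACTT.
mmu-miR-294-3p: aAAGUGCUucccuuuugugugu
mmu-miR-302b-3p: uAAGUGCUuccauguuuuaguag
Of the 8 members only Mixl1 holds this site in the longest 3' untranslated region of its coding transcripts in GENCODE vM21. The site is 1201 bases after the stop codon and is shown in capitals at the end of 23 bases.
Mixl1 site: gaccaccatttttcttAGCACTT
A site of these letters is present in 15% of 17839 genes with such a region. None of the 8 members holds the site GCACTTT of miR-20a-5p, present in 12.2% of genes, or CTACCTC of let-7a-5p, present in 9.27%.

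The 250 bases before the RefSeq start (GRCm38.p6) are shown for Evx1, whose exon reads changed most, and for Eomes, which moved the other way in the rescue. Entries existed for 6 of the 8 members, T, Evx1, Gsc, Eomes, Kdr and Mesp1. On both strands 5 motifs were searched, written 5' to 3' as T-box AGGTGTGA, FoxH1 TGTNNATT, Smad palindrome GTCTAGAC and Tcf/Lef CTTTGAT, with the paired homeodomain motif (inverted TAAT repeats) as the last.
Evx1 promoter, chr6:52313248-52313497, + strand: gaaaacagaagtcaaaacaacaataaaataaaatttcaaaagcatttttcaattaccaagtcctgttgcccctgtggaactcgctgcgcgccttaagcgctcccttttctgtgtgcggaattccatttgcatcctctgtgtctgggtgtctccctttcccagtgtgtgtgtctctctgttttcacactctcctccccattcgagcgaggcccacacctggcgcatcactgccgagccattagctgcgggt
Eomes promoter, chr9:118477939-118478188, + strand: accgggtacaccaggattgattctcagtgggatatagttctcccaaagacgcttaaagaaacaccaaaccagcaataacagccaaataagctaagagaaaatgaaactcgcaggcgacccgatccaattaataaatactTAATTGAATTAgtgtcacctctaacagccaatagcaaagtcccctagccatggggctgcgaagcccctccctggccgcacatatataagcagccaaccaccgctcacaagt
The capitals in the Eomes promoter mark a paired homeodomain match 111 bases before the start, a motif in 0.46% of 32817 promoters of the same length. Mesp1 held a Tcf/Lef match 31 bases before its start, present in 3.21% of promoters. Evx1, T, Gsc and Kdr held none of the 5 motifs in this window, and the shares of promoters with a T-box, FoxH1 and Smad palindrome match were 1.12, 10.9 and 0.168%.

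On mm10, the build named in the submitters' processing notes, T (ENSMUSG00000062327) lies on chromosome 17 from 8434423 to 8442496 and Evx1 (ENSMUSG00000005503) on chromosome 6 from 52313498 to 52318378. Gsc (ENSMUSG00000021095) lies on chromosome 12 from 104471209 to 104473330, Mixl1 (ENSMUSG00000026497) on chromosome 1 from 180693043 to 180697034, and Eomes (ENSMUSG00000032446) on chromosome 9 from 118478212 to 118486132. Kdr (ENSMUSG00000062960) lies on chromosome 5 from 75932827 to 75978458, Fgf8 (ENSMUSG00000025219) on chromosome 19 from 45736798 to 45742915, and Mesp1 (ENSMUSG00000030544) on chromosome 7 from 79792241 to 79793788. The antisense gene Evx1os overlaps Evx1 over 1335 bases, and the antisense gene Gm33460 overlaps Eomes over 574 bases. The libraries were strand-specific, but whether the counting used strand is not given in the sources used here, so reads of these pairs may not be separate.

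All values below are normalised exon reads unless introns are named, per library, where libraries of a group are numbered by depth. Libraries held 13.5 to 53.7 M exon reads (genetic series), 32.9 to 62.4 M (time course) and 24.7 to 53.8 M (rescue). Between libraries of 1 group the absolute log2 difference had a median of 0.326 to 0.57 (genetic), 0.0733 to 0.0955 (time course) and 0.0825 to 0.106 (rescue). ES cell identity was read from 9 markers, which all averaged over 10 normalised reads in the time course and rescue and summed to 488787 normalised reads at 0 h and 519303 at 96 h. The labels do not say whether libraries of a group came from separate cultures, so p-values may measure technical spread alone.

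Per kilobase of exon, the members were ordered at 0 h as Eomes (60.0 ± 2.14 normalised reads per kilobase, SD, n = 2), Evx1 (31.8 ± 5.06), Gsc (19.7 ± 1.11), Kdr (17.6 ± 0.99), Mixl1 (9.10 ± 2.06), Mesp1 (6.99 ± 7.35), Fgf8 (5.74 ± 2.25) and T (5.04 ± 0.44). From Mixl1 on, no neighbours in this order differed beyond their spread. After 96 h without doxycycline the order was Evx1 (120.8 ± 11.01), Gsc (77.6 ± 9.13), Kdr (59.0 ± 6.38), Eomes (47.1 ± 8.54), Mixl1 (24.4 ± 0.32), Mesp1 (7.86 ± 4.74) and Fgf8 (7.55 ± 4.43), with T at 0. Eomes thus led the members per kilobase at the start and had 3 above it at the end. Kdr and Eomes, and again Mesp1 and Fgf8, did not differ beyond their spread.

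Removal of doxycycline asks how the streak genes respond as Ago2 is withdrawn. At 96 h Evx1, Gsc, Kdr and Mixl1 were higher than at 0 h, Eomes and Fgf8 were not called in either direction, and T had no exon read left. Against 0 h, Gsc was first called higher at 24 h, Kdr and Mixl1 at 48 h, and Evx1 at 96 h after a fall at 24 h. Differences in timing between the genes were not tested. Mixl1 at 48 h was not called against 24 h (log2 change 0.45, limma adjusted p = 0.341). A gene was called at a limma adjusted p below 0.05 over all genes averaging 10 or more normalised reads, on the log2(normalised reads + 1) scale. By this rule 6 of the 8 members were tested, 4 were called higher at 96 h and 0 lower, while 32.4% of all 13652 genes tested were called higher and 32.5% lower. The 96 h cells had also spent 96 h longer in culture than the 0 h cells, which cannot be told apart from the loss of Ago2. In these bulk samples fewer cells with a transcript and less of it per cell cannot be told apart either.

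**Figure D1:**
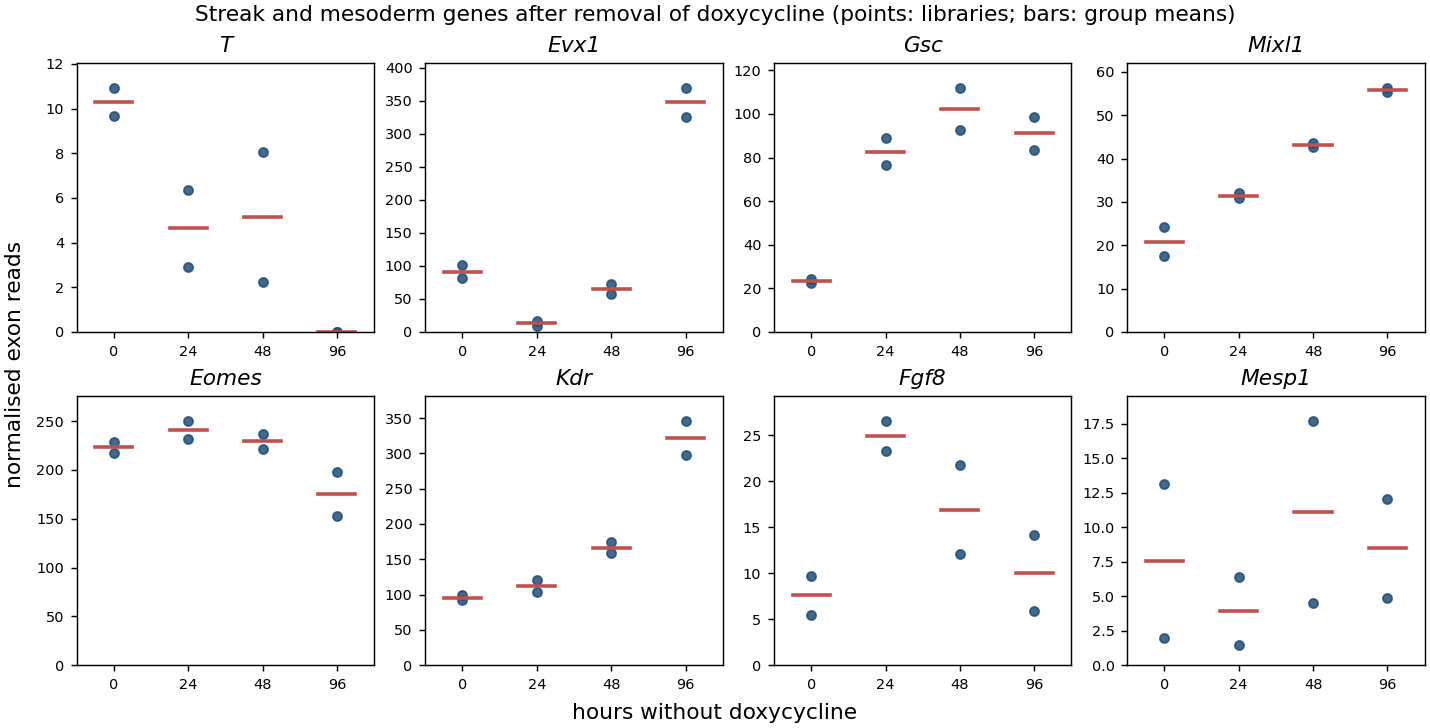
Normalised exon reads (vertical axes, a separate scale per gene, each from 0) of the 8 members against hours without doxycycline, with 1 point per library and a bar at the mean of the 2 libraries. Evx1 drops from 91.5 to 12.9 at 24 h and reaches 347.6 at 96 h, Gsc is high from 24 h on, and T is at 0 at 96 h.

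Among the homeobox factors, Evx1, which marks the posterior streak, held 81.2 and 101.8 normalised reads in the 0 h libraries, then 17.0 and 8.74 (24 h), 57.9 and 72.5 (48 h) and finally 370.1 and 325.2 (96 h). The 24 h libraries lay below and the 96 h libraries above all others. Evx1 fell 6.94-fold in the first 24 h (log2 change -2.80, SE 0.29, limma adjusted p = 3.85e-08), and only 9 of 13652 genes had a more negative change. From 24 to 96 h it rose 26.3-fold (log2 change 4.72, SE 0.29, adjusted p = 4.33e-12), and 0 of the 13652 genes had a larger change. It rose both from 24 to 48 h (log2 change 2.31, adjusted p = 1.54e-06) and from 48 to 96 h (2.40, adjusted p = 8.23e-07). Against 0 h it was not called at 48 h (log2 change -0.48, adjusted p = 0.157) and was higher at 96 h (1.92, SE 0.29, adjusted p = 3.98e-06).

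Gsc, the homeobox factor of the anterior streak and organizer, held 22.2 and 24.1 normalised reads in the 0 h libraries, then 76.5 and 88.8 (24 h), 112.1 and 92.7 (48 h) and finally 83.5 and 98.7 (96 h). Both 0 h libraries lay below all later ones, and the 96 h libraries overlapped those of 24 and 48 h. Gsc was higher than at 0 h at 24 h (log2 change 1.79, SE 0.27, adjusted p = 7.65e-06), 48 h (2.09, adjusted p = 4.05e-07) and 96 h (1.93, adjusted p = 1.23e-06). Mixl1, a homeobox factor of streak mesendoderm and the member with a miR-294 seed site, held 24.2 and 17.5 in the 0 h libraries, then 30.8 and 32.0 (24 h), 43.6 and 42.7 (48 h) and finally 55.4 and 56.4 (96 h). Its groups did not overlap at any time. Mixl1 was not called at 24 h (log2 change 0.59, adjusted p = 0.173) and was higher at 48 h (1.03, adjusted p = 0.0140) and 96 h (1.40, SE 0.35, adjusted p = 0.00138). The 48 h call was lost without library 2 of 0 h (adjusted p = 0.0968) or without library 1 or 2 of 48 h (0.0661 and 0.0587).

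Kdr encodes the main Vegf receptor of endothelial cells and marks lateral mesoderm. It held 99.5 and 91.9 normalised reads in the 0 h libraries, then 104.1 and 120.8 (24 h), 158.8 and 174.1 (48 h) and finally 297.2 and 346.4 (96 h). Again no group overlapped another. Kdr was not called at 24 h (log2 change 0.23, adjusted p = 0.313), and was higher at 48 h (0.79, adjusted p = 0.000629) and 96 h (1.74, SE 0.18, adjusted p = 1.51e-08). It rose from 48 to 96 h (log2 change 0.94, adjusted p = 0.000285) and from 24 to 48 h (0.56, adjusted p = 0.0172). The latter call was lost without library 1 of 24 h (adjusted p = 0.113) and without library 1 or 2 of 48 h (0.0501 and 0.128).

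Of the T-box factors, Eomes, needed for definitive endoderm and cardiac mesoderm, held 217.4 and 228.7 normalised reads in the 0 h libraries, then 231.6 and 250.4 (24 h), 221.2 and 237.0 (48 h) and finally 152.5 and 197.4 (96 h). Both 96 h libraries lay below all others. Eomes was lower at 96 h than at 24 h (log2 change -0.47, SE 0.16, adjusted p = 0.0167), and this call was lost without library 2 of 24 h (adjusted p = 0.0880) or library 1 of 96 h (0.213). Against 0 h its change at 96 h was -0.36 (adjusted p = 0.0562), and without library 2 of 96 h it was -0.55 (adjusted p = 0.0156).

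T, the Brachyury gene, a direct target of Wnt signalling, was too low for the test. It held 9.66 and 10.9 normalised reads in the 0 h libraries, then 6.38 and 2.91 (24 h), 2.26 and 8.06 (48 h) and 0 in both (96 h). Both 0 h libraries were the highest, and the 96 h group had 0 exon reads where 20 were summed over the 0 h libraries. A floor of 3 reads over the 96 h group is 1.48 normalised reads, and the 0 h mean of 10.3 was 6.94 times that. For counting error only, the exact 95% Poisson interval of the 0 h mean was 6.29 to 15.9 normalised reads. The 6.94 is therefore no lower bound. With the filter on low values removed, its fitted change at 96 h had an adjusted p of 0.000589. Intron reads of T were present in 1 of the 2 libraries at 96 h, with 4 reads, and likewise in 1 of the 2 at 0 h, with 4 reads.

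Fgf8, the ligand that lets cells leave the streak, held 9.66 and 5.47 normalised reads in the 0 h libraries, then 26.6 and 23.3 (24 h), 12.04 and 21.8 (48 h) and finally 5.83 and 14.1 (96 h). Its 24 h libraries lay above all others, and those of 0 and 96 h overlapped. Fgf8 was higher at 24 h than at 0 h (log2 change 1.64, SE 0.60, adjusted p = 0.0258). Leaving out library 2 of 0 h ended that call (adjusted p = 0.141), as did leaving out library 1 or 2 of 24 h (0.102 and 0.0710). At 96 h it differed from 0 h by 0.29 on the log2 scale (adjusted p = 0.689). Mesp1, the factor of early heart mesoderm, had 1.46 to 17.7 normalised reads over the 8 libraries with overlap between all groups, and was not tested.

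Over the 6 tested members, then, 2 were called higher and 1 lower at 24 h against 0 h, where 26.5 and 24.1% of all genes were. At 48 h 3 were higher, with 32.1% of all genes. From 24 to 48 h 2 were higher, with 20.2% of all genes. From 48 to 96 h 2 were higher, with 20.1%, and from 24 to 96 h 2 were higher and 1 lower, with 29.5 and 27.8%. The counts are of 6 genes. The early calls of Fgf8, Mixl1 and Kdr named above lay near the threshold, and leaving out any 1 of several libraries ended them. The median change of the 6 at 96 h against 0 h was 1.57, beside -0.01 over all genes.

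**Figure D2:**
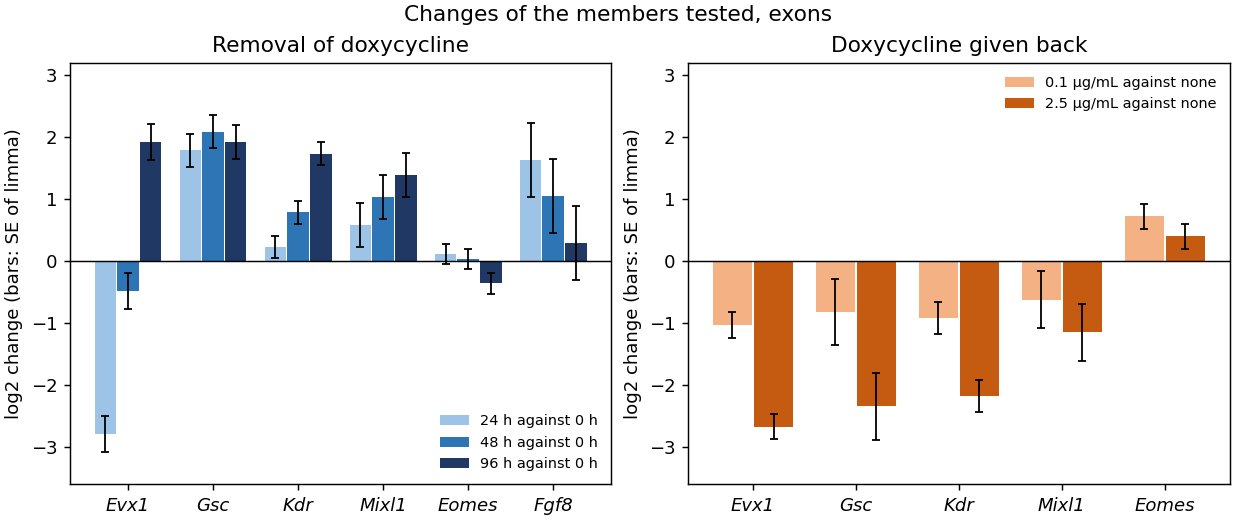
Log2 changes of exon reads of the tested members (bars from 0, with the standard error of limma): left, 24, 48 and 96 h without doxycycline against 0 h; right, 0.1 and 2.5 µg/mL doxycycline given back against none. Evx1, Gsc, Kdr and Mixl1 end above 0 on the left and below 0 on the right, and Eomes does the reverse with smaller changes.

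Giving doxycycline back asks whether renewed Ago2 moves these genes the other way. With 2.5 µg/mL, Evx1, Gsc, Kdr and Mixl1 fell, and with 0.1 µg/mL Evx1 and Kdr fell and Eomes rose. The dosed cells were 48 h longer in culture than those without doxycycline. At 2.5 µg/mL 4 of the 5 members tested were called lower, where 32.0% of 13176 genes were. At 0.1 µg/mL 2 were lower and 1 higher, where 22.1 and 22.0% of genes were. Between the doses 3 were lower at the higher dose, where 21.0% of genes were.

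**Figure D3:**
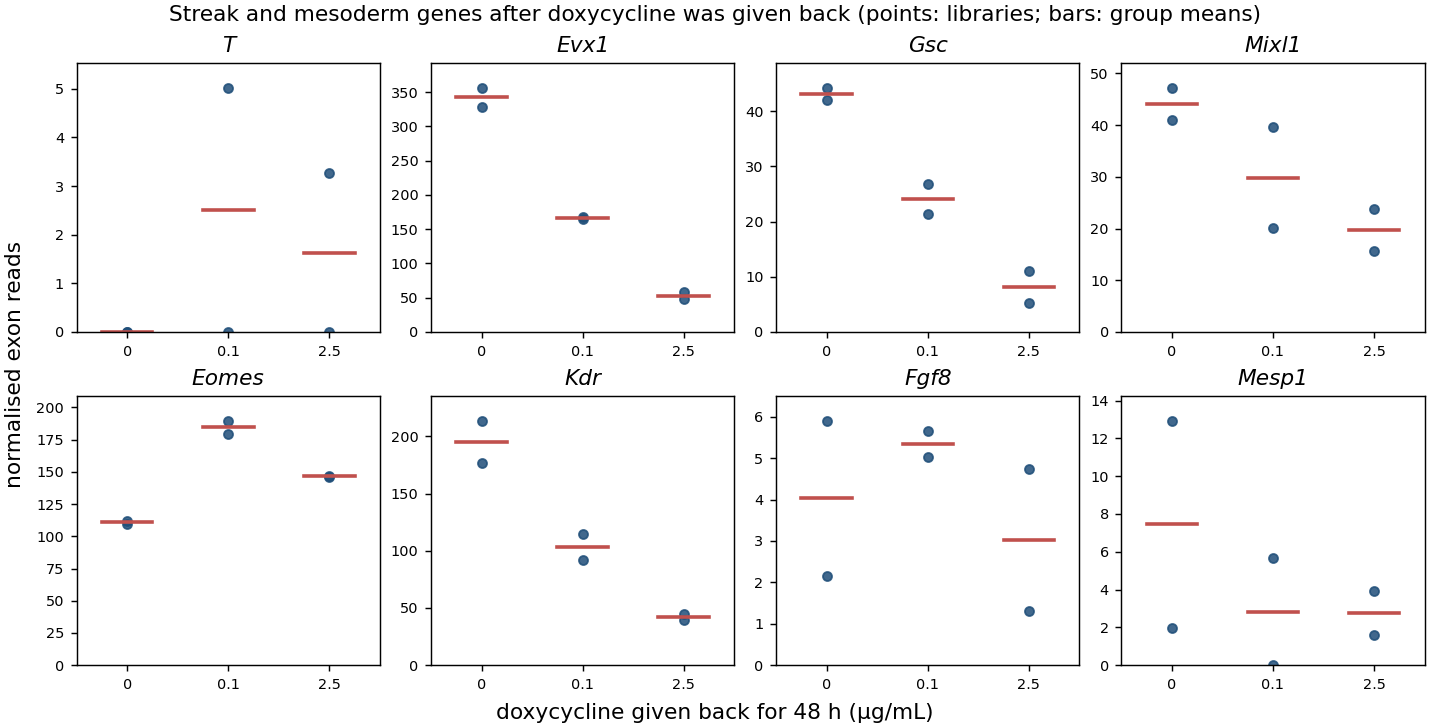
Normalised exon reads (vertical axes, a separate scale per gene, each from 0) of the 8 members against the doxycycline given back for 48 h after 96 h without it, with 1 point per library and a bar at the mean of the 2 libraries. Evx1 steps down from 342.3 to 166.3 and 53.1, Kdr and Gsc step down likewise, and Eomes is highest at 0.1 µg/mL.

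Evx1 held 327.9 and 356.8 normalised reads undosed, 167.1 and 165.5 with 0.1 µg/mL, then 58.8 and 47.4 with 2.5 µg/mL. The 3 groups were well apart. It was 2.05-fold lower at 0.1 µg/mL (log2 change -1.04, SE 0.21, adjusted p = 0.000188) and 6.37-fold lower at 2.5 µg/mL (-2.67, SE 0.21, adjusted p = 1.13e-11), and the doses differed (-1.64, adjusted p = 4.34e-07). Kdr had 213.7 and 176.8, then 91.7 and 114.6, then 39.2 and 45.1. It too stepped down without overlap, by -0.92 at 0.1 µg/mL (adjusted p = 0.00468) and -2.18 at 2.5 µg/mL (SE 0.26, adjusted p = 2.97e-08), and between doses by -1.27 (adjusted p = 0.000247). The call at 0.1 µg/mL was lost without library 1 of the untreated group (adjusted p = 0.0852) or library 1 of 0.1 µg/mL (0.0583).

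Gsc held 44.3 and 42.0 normalised reads undosed, 21.4 and 26.9 with 0.1 µg/mL, then 5.23 and 11.1 with 2.5 µg/mL, again without overlap. Its change was -0.82 at 0.1 µg/mL (adjusted p = 0.223) and -2.35 at 2.5 µg/mL (SE 0.53, adjusted p = 0.000404). The step between the doses (-1.53, adjusted p = 0.0235) was lost without library 1 or 2 of 0.1 µg/mL (0.0538 and 0.134), without library 1 of 2.5 µg/mL (0.147) and when only those 2 groups were fitted (0.0638). Mixl1 had 47.3 and 41.0, then 20.1 and 39.6, then 15.7 and 23.7, and its dosed groups overlapped. It was lower at 2.5 µg/mL (-1.15, SE 0.46, adjusted p = 0.0328), which was lost without either untreated library (0.148 and 0.0820), without library 1 of 2.5 µg/mL (0.162) and with no filter on low values (0.0514).

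Eomes held 112.2 and 109.9 normalised reads undosed, 189.8 and 179.6 with 0.1 µg/mL, then 146.4 and 147.1 with 2.5 µg/mL. The 3 groups did not overlap, and the middle dose was highest. Eomes was higher at 0.1 µg/mL than without doxycycline (log2 change 0.73, SE 0.20, adjusted p = 0.00452). At 2.5 µg/mL its change was 0.40 (adjusted p = 0.0880), and the doses differed by -0.33 (adjusted p = 0.204).

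T, Fgf8 and Mesp1 were under the filter in the rescue. T had 0 exon reads in both libraries without doxycycline and in 1 library at each dose, with 5.03 and 3.27 normalised reads in the others. Only 4 and 5 reads were summed at 0.1 and 2.5 µg/mL, and the exact 95% Poisson interval at 2.5 µg/mL, for counting error only, was 0.53 to 3.81 normalised reads. The 2.5 µg/mL libraries, with 53767538 and 45041763 exon reads over all genes, were about as deep as those of 0 h in the time course, with 50114323 and 44295410. The levels of T in the rescue and the time course come from separate series normalised apart and were not compared. Fgf8 had 1.31 to 5.91 normalised reads and Mesp1 0 to 12.9 over the 6 libraries. The groups of Mesp1 overlapped, and those of Fgf8 did except between the 2 doses.

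The genetic series compares stable lines, and there the libraries of a group lay far apart. Evx1 was high in both clone libraries, T was high in both wild-type libraries alone, and no member passed the test in any of the 6 comparisons. Of 6 members tested, limma called 0 for B9 against wild type (0.0685% of 13142 genes called), E7 against wild type (4.56%), the clones against wild type (18.6%), E7 against B9 (0.0685%), the clones against B9 (13.0%) and the clones against E7 (1.51%). An unadjusted p below 0.05 was reached by 1, 1, 3, 1, 3 and 1 members in that order. Over all 13142 genes it was reached by 964, 2574, 4555, 1117, 4128 and 2661.

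**Figure D4:**
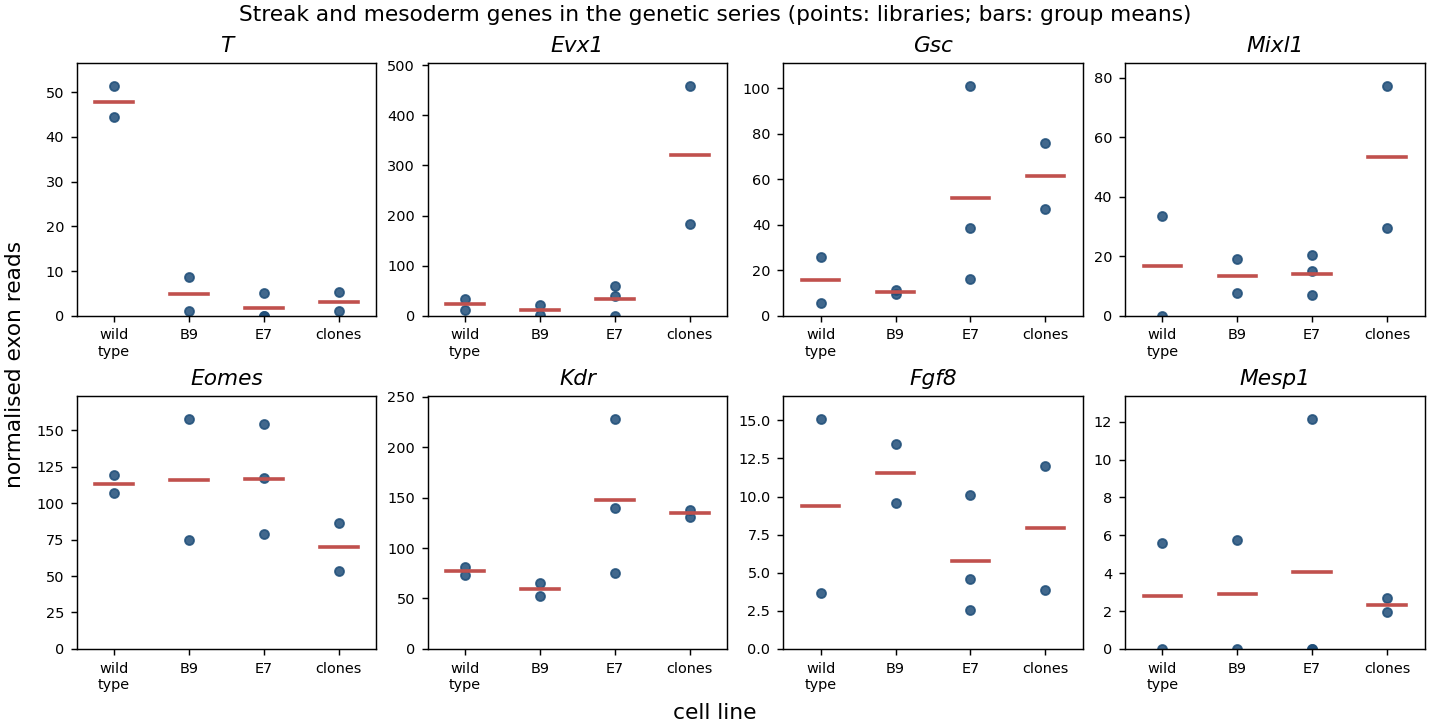
Normalised exon reads (vertical axes, a separate scale per gene, each from 0) of the 8 members in wild type, B9, E7 and the clones, with 1 point per library (2, 2, 3 and 2) and a bar at the group mean. T is above 44 only in wild type, and Evx1 is above 180 only in the clones.

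Evx1 had 34.1 and 11.1 normalised reads in wild type, 22.0 and 1.92 in B9, 58.7, 40.3 and 0 in E7, and 458.6 and 182.7 in the clones. Both clone libraries lay above every other library, and the other lines overlapped. Its change was 3.82 in the clones against wild type (SE 1.69, adjusted p = 0.136), 5.15 against B9 (adjusted p = 0.0673) and 4.43 against E7 (adjusted p = 0.162). The library of E7 without an Evx1 read widened the common spread: without it the adjusted p was 0.0216 against wild type and 0.00950 against B9. With only the compared groups in the fit it was 0.00349 against wild type and 0.00614 against B9.

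T had 51.4 and 44.4 normalised reads in wild type, 8.63 and 0.96 in B9, 5.06, 0 and 0 in E7, and 0.96 and 5.34 in the clones. Wild type lay above all mutant libraries, which overlapped each other. T passed the filter only through wild type, with means of 47.9 there and 4.79, 1.69 and 3.15 in B9, E7 and the clones. The tests against wild type are therefore no independent support for a difference. The change of T against wild type was -3.49 in B9 (adjusted p = 0.552), -4.74 in E7 (SE 1.24, adjusted p = 0.0532) and -3.79 in the clones (SE 1.35, adjusted p = 0.0735). Without library 1 of E7 the change in E7 had an adjusted p of 0.0428. Markers of other cell types also differed between wild type and the mutants. The 5 neuroectoderm markers, none at 0 in any library, summed to 4211 to 4277 normalised reads per wild-type library and 1128 to 2615 per mutant library. The 7 trophoblast markers summed to 5739 to 7915 in wild type and 3063 to 6001 in the mutants, where the clones overlapped wild type. Fgf5, an epiblast ligand, averaged 76.8 in wild type against 8.64, 2.38 and 0 in B9, E7 and the clones. The 9 ES cell markers summed to 193736 over the authors' means in wild type, and to 289632, 308143 and 268113 in B9, E7 and the clones. Their part in the difference of T was not tested. The mutant lines also lacked Blm, and wild type did not, so the Argonaute and Blm genotypes cannot be told apart in these comparisons.

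Gsc had 5.58 and 25.9 normalised reads in wild type, 9.59 and 11.5 in B9, 38.4, 16.1 and 100.9 in E7, and 46.8 and 76.0 in the clones. The clones lay above wild type and B9, and E7 overlapped both wild type and the clones (clones against wild type 2.19, adjusted p = 0.122). Mixl1 had 33.5 and 0 in wild type, 19.2 and 7.69 in B9, 15.2, 6.90 and 20.4 in E7, and 77.2 and 29.3 in the clones, with overlap between wild type and every other line, and the clones above B9 and E7. Kdr had 73.2 and 81.4 in wild type, 65.2 and 52.8 in B9, 74.8, 227.7 and 139.3 in E7, and 137.9 and 130.7 in the clones. The clones lay above wild type and B9 for Kdr, by 0.79 (adjusted p = 0.312) and 1.18 (adjusted p = 0.154).

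Eomes had 119.5 and 107.3 normalised reads in wild type, 74.8 and 157.6 in B9, 78.9, 154.1 and 117.6 in E7, and 86.3 and 53.4 in the clones. The clones lay below wild type (log2 change -0.73, adjusted p = 0.347) and overlapped B9 and E7. Mixl1 in the clones against wild type changed by 3.05 (SE 1.40, adjusted p = 0.147), a value that moved to 5.61 (adjusted p = 0.0200) without library 1 of wild type and to 0.50 without library 2, the library without a Mixl1 read. Fgf8 had 2.56 to 15.1 normalised reads and Mesp1 0 to 12.1 over the 9 libraries, with overlap between all lines, and both were under the filter.

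Introns show unspliced RNA, and few members had enough of it: Evx1 passed the filter in all 3 series and Eomes in the time course. Evx1 introns held 6.73 and 6.22 normalised reads in the 0 h libraries, then 2.19 and 0 (24 h), 1.46 and 8.22 (48 h) and finally 25.1 and 51.3 (96 h). The 96 h libraries lay above all others, as in exons. Evx1 introns were higher at 96 h than at 0 h (log2 change 2.31, SE 0.88, adjusted p = 0.0328), 24 h (4.37, adjusted p = 0.000253) and 48 h (2.96, adjusted p = 0.0187), where 22.7, 16.7 and 9.17% of 12225 genes were called higher. Evx1 introns passed the filter here only through the 96 h group, as all earlier libraries held under 10 normalised reads. These tests of 96 h are therefore no independent support for a difference. Exon minus intron changes of Evx1 at 96 h against 0 h were -0.39 (adjusted p = 0.706, with 9.08% of 11939 genes called).

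In the rescue, Evx1 introns held 19.0 and 15.4 normalised reads undosed, 17.0 and 17.8 with 0.1 µg/mL, then 15.98 and 8.55 with 2.5 µg/mL. The undosed group overlapped both doses, which did not overlap each other. The intron change at 2.5 µg/mL was -0.51 (SE 0.58, adjusted p = 0.497), where 46.4% of 11580 genes were called. Exon minus intron, centred per library, changed by -2.12 at 2.5 µg/mL against none (SE 0.24, adjusted p = 0.0221), where 11.3% of 11295 genes were called. It was not called for 0.1 µg/mL against none (-1.04, adjusted p = 0.313) or between the doses (-1.08, adjusted p = 0.0697). Exon and intron libraries of the rescue were matched on correlations of only 0.040 to 0.090. Under the other matching the adjusted p at 2.5 µg/mL against none was 0.0393, and with a pseudocount of 4 it was 0.0166. Between the doses it was 0.166 and 0.0471 under these settings. Only 8 to 22 intron reads of Evx1 lay behind each library, and Evx1os overlaps it.

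Intron reads of the other members were few. Eomes introns held 7.70 and 4.15 normalised reads in the 0 h libraries and 16.1 and 9.42 in those of 96 h, with exon means of 223.1 and 174.9. The exon minus intron change of Eomes was -1.36 (SE 0.40, adjusted p = 0.0888). Kdr introns, under the filter, held 0 and 7.26 in the 0 h libraries against 17.1 and 19.9 in those of 96 h, and in the rescue 12.1 and 12.5 undosed against 0 in both with 2.5 µg/mL. In these comparisons the Kdr intron groups did not overlap and stood in the order of its exons. In the genetic series they stood the other way: Kdr introns averaged 4.02 in the clones and 10.1 in wild type, and its exons 134.3 and 77.3, with no overlap in either. None of these Kdr intron differences was tested.

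Genes around the members were read from 7 lists, whose counts stand beside 32.4% of all genes called higher and 32.5% lower at 96 h against 0 h, and 31.8% higher and 32.0% lower at 2.5 µg/mL against none. Of 9 tested streak signals, 6 rose and 1 fell at 96 h against 0 h (median 0.20, all genes -0.01). Wnt3a, a Wnt ligand of the streak, rose from 70.2 to 344.4 normalised reads (log2 change 2.28, SE 0.23, adjusted p = 8.77e-09), Furin, which cleaves Nodal precursor, by 0.96 and Nodal by 0.65, while Bmp4 fell (-1.74, adjusted p = 4.32e-13). Wnt3, the ligand that starts the streak, had 16.8 and 10.9 (adjusted p = 0.413). Of 5 signal inhibitors 4 rose and 1 fell, with the Nodal inhibitors Lefty1 and Lefty2 at 2.74 and 2.51 and the Bmp inhibitor Nog at -1.82. At 2.5 µg/mL 1 of 8 tested signals was higher and 7 were lower, as were 3 of the 5 inhibitors. There Wnt3a changed by -3.76 (323.8 to 23.1, adjusted p = 9.43e-13), Lefty1 by -2.89 and Bmp4 by 0.85.

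Wnt target and Cdx genes, which like T respond to beta-catenin, were read as a further list. Of 8 tested, 0 rose and 6 fell at 96 h (median -0.72, all genes -0.01), and at 2.5 µg/mL 4 were higher and 0 lower (median 0.83, all genes 0.00). The Wnt feedback inhibitor Axin2 fell from 465.3 to 160.0 (-1.54, adjusted p = 2.22e-09), Nkd1 by -2.01 and Cdx1 by -1.18. In the clones against wild type 4 of the 8 were lower, where 7.72% of all genes were, and 0 higher, with Axin2 at -1.79 (adjusted p = 0.00650). Against B9 2 of the 8 were lower in the clones, where 5.41% of all genes were, and against E7 limma called 0 of the 8. In the clones against E7 4 of the 8 (Axin2, Cdx1, Sp5 and Tcf7) had an unadjusted p below 0.05, as had 2661 of all 13142 genes. In the same 96 h comparison the ligand Wnt3a rose.

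**Figure D5:**
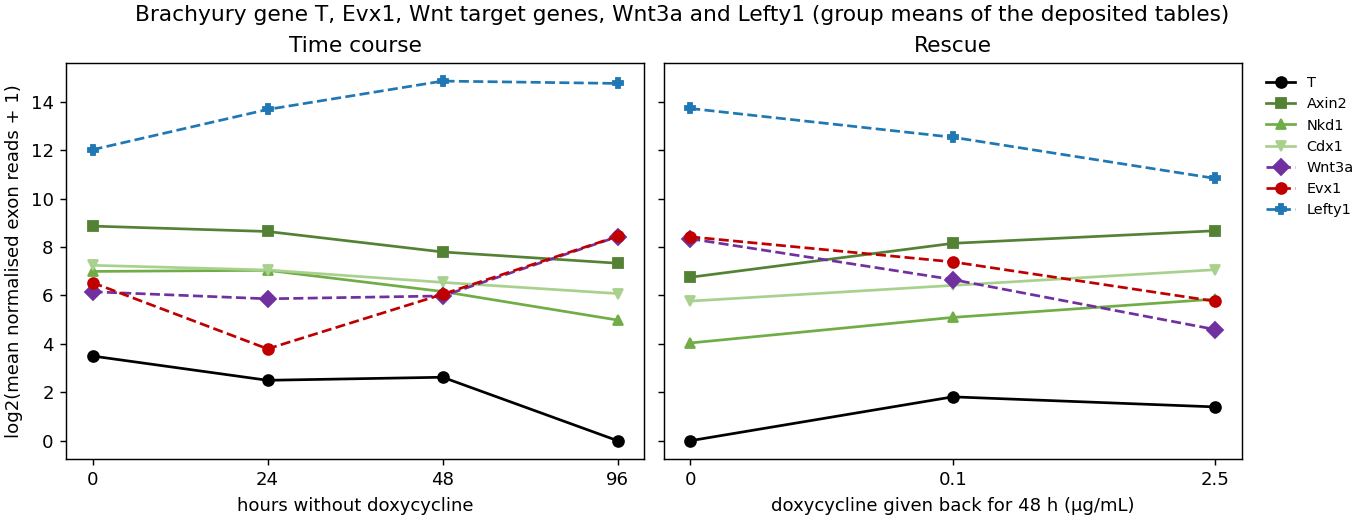
Group means on the log2(normalised exon reads + 1) scale against hours without doxycycline (left) and doxycycline given back (right) for T, Evx1, the Wnt targets Axin2, Nkd1 and Cdx1, the ligand Wnt3a and the Nodal inhibitor Lefty1. The 2 panels come from tables normalised apart; T and the Wnt targets end lower on the left while Evx1, Wnt3a and Lefty1 end higher, and Evx1, Wnt3a and Lefty1 step down on the right.

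Of 14 other streak, mesoderm and endoderm factors tested, 4 rose and 2 fell at 96 h (median 0.21), no larger a share than over all genes in either direction. Snai1, which drives the epithelial to mesenchymal change, rose by 1.66, Gata4 by 1.25 and Foxc2 by 1.15, whereas Gata4 and Snai1 were lower at 2.5 µg/mL (-0.86 and -0.89) and Foxc2 was not called (1.09, adjusted p = 0.0686). Among 14 Vegf and vessel genes 7 rose and 3 fell (median 0.38). Cdh5, an endothelial cadherin, rose from 2.90 to 42.9 (4.04, SE 0.69, adjusted p = 1.75e-05), Tal1 by 1.76 and Pecam1 by 1.15. Beside Kdr, the 6 endothelial markers summed to 5354 to 5372 normalised reads at 0 h and 10846 to 10962 at 96 h, and to 7427 to 7482 without doxycycline and 3938 to 3960 at 2.5 µg/mL. Most of that sum was Pecam1, and Emcn was at 0 reads in all libraries of the 3 series. The fibroblast or feeder markers, mostly S100a6 (mean 1269 in the rescue), summed to 1488 to 1617 undosed and 1268 to 1440 at 2.5 µg/mL. The 7 trophoblast markers summed to 4683 to 4789 at 0 h and 6297 to 6570 at 96 h, and to 4858 to 5043 undosed and 3848 to 3884 at 2.5 µg/mL. The part of other cell types in the change of Kdr was not tested.

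The Fgf receptors and Erk feedback genes, partners of Fgf8, had 2 of 12 higher and 9 lower at 96 h (median -0.49), led by Etv4 (-1.48), Fgfr3 (-1.04) and Spry2 (-0.96). At 2.5 µg/mL 7 were higher and 2 lower (median 0.32), with Etv4 at 1.22, Fgfr3 at 1.36 and Spry2 at 1.28. Among 7 Smad partners of the streak factors 4 rose and 1 fell at 96 h (median 0.19), Smad3 by 0.84 and the activin receptors Acvr1b and Acvr2b by 0.46 and 0.34. At 2.5 µg/mL 2 of the 7 were higher and 3 lower, with a median of -0.03 and with Smad3 at -0.66 and Acvr2b at -0.51. Markers of late mesoderm beside these summed to 400.1 to 400.4 normalised reads at 0 h and 421.9 to 453.6 at 96 h, and in the rescue to 268.4 to 273.7 undosed and 367.7 to 392.0 at 2.5 µg/mL, higher with the dose at which Evx1, Gsc, Kdr and Mixl1 fell. Most of these late mesoderm reads were Twist1, which averaged 244.3 over the 8 time-course libraries and 201.7 over the 6 rescue libraries. Foxf1 averaged only 2.74 and 3.02, and 5 of the 6 listed markers had an entry. The sums therefore say little of late mesoderm as a whole. Markers of fibroblasts or feeders summed to 1537 to 1567 at 0 h and 2110 to 2315 at 96 h. Most of that sum was S100a6, with a mean of 1219 over the 8 libraries, and Col3a1 had reads in 0 and Lum in 1 of them.

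The genes with the pattern most like that of each member were sought among 13148 genes over the 14 libraries of the time course and rescue, centred per series, as a description in libraries that share a line, treatments and depth. For Evx1 these were Slc35d3, Cnnm1 and Pigb (Pearson correlations 0.981, 0.972 and 0.968). For Gsc they were Mansc4, Slc5a3 and Cep70 (0.986, 0.985 and 0.985), and for Kdr Abcb1a, 1600014C10Rik and Acsl5 (0.989, 0.986 and 0.985). Mixl1 was most like Krt16, Gcnt4 and Ly6a (0.961, 0.960 and 0.953), and Eomes like Rlf, Usp26 and Spn (0.908, 0.897 and 0.890). By Spearman correlation the named genes ranked from 3 (Rlf for Eomes) to 446 (Krt16 for Mixl1). Which genes were nearest thus depended on the measure. By Pearson correlation no member was among the 3 nearest genes of another.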

How the data were processed

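RNA of 23 samples in 11 groups was measured by strand-specific polyadenylated RNA sequencing. Per the file headers and the labels, the authors deposited 6 tables of signal, normalised exon or intron reads per gene with 1 column per group, the mean of its libraries. The submitters' processing notes name TopHat2 2.0.12, DESeq and mm10. Not given in the sources used here are DESeq's version, how reads were counted and whether that used strand.

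No table held library values. Because each mean is a sum of whole reads times a step set by the size factors, the reads of each library were recovered by an integer search (404962 of 405064 values, 99.975%, largest relative misfit 6.39e-15). Of the 102 values without 1 solution, 101 were E7 exon values holding 17.7% of that mean, and their genes were left out of the genetic tests. Libraries are numbered by depth within a group, and which deposited sample each is, C62 and C86 included, is not known. Which intron library goes with which exon library was set by how their deviations from the group mean correlated over genes, and the other matching was an alternative.

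Tests used limma 3.58.1 (R 4.3.3) with a trended prior on log2(normalised reads + 1), 1 fit per table over all its groups, for genes averaging at least 10 normalised reads. Benjamini-Hochberg adjustment ran over all genes tested, and an adjusted p below 0.05 was a call. The steps were tested on simulated data. Recovery and summaries used Python 3.11.15, numpy 2.4.6, scipy 1.17.1, pandas 2.3.3 and numba 0.67.0. The members and lists were chosen with earlier results of these data known. All members are named, with up to 3 called genes per list of the largest absolute change at 96 h against 0 h, Lefty1, Lefty2, Nodal, Wnt3, Bmp4 and Cdx1 whatever their values, and the 3 genes best correlated with each member. Alternatives were pseudocounts of 0.5 and 4, no filter and a minimum of 30, TMM scaling, voom, fits of the compared groups alone, and each library left out. Fits without the 24 h group and with refitted size factors were added after seeing the data.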

Additional observations from a re-analysis of the deposited data

How the results depend on the processing

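Over the alternatives, 888 values of single members kept their direction and side of the threshold, 29 gained a call, 21 lost one and 3 changed sign. Fgf8 at 96 h against 0 h (0.29) was -0.07 without library 2 of 0 h and -0.28 without library 2 of 96 h, within a range of -0.28 to 0.86 when 1 library was left out. Eomes at 48 h against 0 h (0.04) was -0.011 without library 2 of 48 h, within -0.011 to 0.087. The cause was not tested.

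In the genetic series, members called lower in E7 against wild type went from 0 to 1 with a pseudocount of 4, no filter or voom. Those lower in the clones against wild type went to 1 with a pseudocount of 4, voom or the 2 groups alone, and those higher there to 1 with the 2 groups alone. Members higher in the clones against B9 went to 1 with a pseudocount of 4, voom or the 2 groups alone. Genes called in B9 against wild type were 4 without a filter, 15 by voom and 4 with the 2 groups alone, where 9 were called before. In E7 against B9 they were 3, 3 and 5, and with the 2 groups alone 883 in the clones against B9 and 38 in the clones against E7. Leaving out 1 library gave 0 to 32 genes for B9 against wild type, 44 to 915 for E7 against wild type and 656 to 3900 for the clones against wild type. It gave 1 to 15 for E7 against B9, 407 to 3427 for the clones against B9 and 16 to 2121 for the clones against E7. The lowest counts came without library 2 of wild type, library 2 of B9 or E7, library 1 of B9 and library 2 of E7, and the highest without a clone library. Members called then ranged from 0 to 1 for those higher in the clones against wild type and against B9, and for those lower in E7 against wild type.

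In the time course, members lower at 96 h against 24 h were 2 with a pseudocount of 4, no filter, voom or the 2 groups alone, and 0 to 2 with a library left out. Members lower at 96 h were 1 against 0 h without a filter or with TMM, 1 against 48 h without a filter, and 0 to 1 in both with a library left out. Members higher at 24 h were 1 with the minimum of 30 and 1 to 2 with a library left out, as were those higher at 48 h against 24 h. Without the 24 h group 1 member was lower at 48 h against 0 h. Genes called at 96 h against 48 h ranged from 3282, without library 1 of 48 h, to 5000. In the rescue, members lower at 0.1 µg/mL ranged from 1 to 2 with a library left out. No paired analysis was possible because the deposited columns are group means that carry no replicate numbers. T, Fgf8 and Mesp1 had few reads, so small changes in them were not detectable at this depth.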
